A study of Homo sapiens with 12 samples.

Results

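Gap junctions are channels that join the insides of neighbouring cells. Each cell contributes a ring of connexin proteins, and 2 rings that dock let ions and small messenger molecules pass. Pannexins resemble connexins in fold but mostly stay in the membrane of a single cell, where they release ATP. Protocadherins are adhesion proteins, and protocadherin 7 (PCDH7) is known from work on brain metastasis for helping carcinoma cells build gap junctions of the GJA1 protein with astrocytes, through which the tumour cell passes the second messenger cGAMP. The genes described here are 5: the connexin genes GJA1, GJB2 and GJC1, the pannexin gene PANX1 and PCDH7, among 17958 genes measured. Each was taken by its symbol and had 1 probe set that named it alone.

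The cells were 231BR, a brain-tropic line derived from the human breast cancer line MDA-MB-231, and carried EGFP. They were kept with mouse astrocytes or without them, and received 10 nM estradiol or its vehicle (labelled OH). The 4 groups, of 3 arrays each, were estradiol with astrocytes, vehicle with astrocytes, estradiol alone and vehicle alone. EGFP-positive cells were sorted after 24 h of co-culture, and RNA was read on single-colour arrays with biotin label. The series' title presents the astrocytes as estrogen receptor positive and the estrogen effect as paracrine. Whether the 3 replicates of a group came from separate cultures is not stated, so the spread behind the p-values may be technical. In bulk RNA of sorted cells, fewer cells of a type and less RNA per cell cannot be told apart.

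The range of signal was narrower on the arrays of co-cultured cells. The SD of all probe sets on an array was 1.62 to 2.10 in estradiol with astrocytes and 1.82 to 2.04 in vehicle with astrocytes, against 2.12 to 2.20 in estradiol alone and 2.04 to 2.22 in vehicle alone. The lowest SD was that of replicate 2 of estradiol with astrocytes, which stood apart, with a correlation across genes as low as 0.681 with another array of its group. The tumour markers VIM, CD44 and EGFR were between 6.20 and 10.8 on the log2 scale on all arrays, while CDH1, an epithelial marker gene, was between 3.29 and 4.38. Of 10 astrocyte marker genes, 6 rose and 1 fell with astrocytes over both treatments (background 24.5% and 23% of all genes), and of 8 microglia marker genes 5 rose. The mean log2 signal of the astrocyte list was 4.64 to 5.31 in estradiol with astrocytes and 4.64 to 4.93 in vehicle with astrocytes, against 4.27 to 4.55 in estradiol alone and 4.35 to 4.72 in vehicle alone. That of the microglia list was 4.29 to 5.41 in estradiol with astrocytes and 4.38 to 4.88 in vehicle with astrocytes, against at most 4.16 in estradiol alone and 3.94 to 4.26 in vehicle alone. In estradiol with astrocytes the highest value of both lists was on replicate 2, the array with the lowest SD. The median of that group was 4.73 for the astrocyte list and 4.64 for the microglia list. Of the 9 genes in the tumour cell list, which also holds ESR1 and CDH1, 1 rose and 3 fell, against the same background. The gene that rose was ESR1, an estrogen receptor gene, and those that fell were VIM, CD44 and EGFR. ESR1 averaged 4.45 in estradiol with astrocytes and 4.21 in vehicle with astrocytes, against 3.45 in estradiol alone and 3.61 in vehicle alone. Its highest value, 5.09, was on replicate 2 of estradiol with astrocytes. Whether the signal of ESR1 came from the tumour cells was not tested. Of the 9 differences 4 were positive, among them those of the keratin genes KRT8 and KRT18, and 5 were negative. GFAP, the filament protein gene of astrocytes, averaged 5.97 in estradiol with astrocytes and 5.87 in vehicle with astrocytes, against 4.93 and 5.02 in estradiol alone and vehicle alone, and AQP4, their water channel gene, 3.33 and 2.89 against 3.03 and 3.04. The deposited values carry no detection call, so none of these genes can be called absent, and the part of other cells or of the range of signal in the results below was not tested except where a value is given.

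The genes fall into 2 sets by signal. GJA1 and PANX1 lay above the array's median probe set on 12 of 12 arrays, and they were the members that passed in limma for astrocyte co-culture. GJB2 and GJC1 lay below that median on 12 of 12 arrays and PCDH7 on 10 of 12. None of these 3 passed in the main limma fit in any of the 6 comparisons. Because the arrays report each probe set on its own scale, the level of one gene is not set against that of another below. For the same reason, the place of a gene against the median describes signal and not amount of RNA.

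The regions just before the start of GJA1 and PANX1 are shown because these 2 genes were lower with astrocytes over both treatments. Shared control of the 2 genes was not tested. Each is the 250 bases before the RefSeq start in GRCh38.p14, on the plus strand, at chr6:121435396-121435645 for GJA1 and chr11:94128591-94128840 for PANX1. Capitals mark the AP-1 letters TGANTCA in GJA1 and the GC box letters GGGCGG, here on the minus strand, in PANX1.
GJA1: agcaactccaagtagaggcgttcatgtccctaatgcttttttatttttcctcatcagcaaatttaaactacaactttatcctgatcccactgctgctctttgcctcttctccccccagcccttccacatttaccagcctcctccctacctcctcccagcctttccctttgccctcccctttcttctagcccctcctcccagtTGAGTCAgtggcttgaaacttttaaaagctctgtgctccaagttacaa
PANX1: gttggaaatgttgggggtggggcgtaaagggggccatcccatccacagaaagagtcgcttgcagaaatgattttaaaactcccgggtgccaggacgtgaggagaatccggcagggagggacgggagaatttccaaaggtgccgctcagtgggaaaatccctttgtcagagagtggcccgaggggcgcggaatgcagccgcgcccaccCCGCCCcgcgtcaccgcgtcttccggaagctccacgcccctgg

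The 2 windows differ in base composition. That of GJA1 holds 48.0% G and C and 1 CG pair, and that of PANX1 62.0% and 19 CG pairs, against a median of 58.0% G and C over 35116 promoters. The first base of the AP-1 letters in GJA1 lies 48 bases before the start, and 6.57% of promoters hold these letters in the same window on either strand. The GC box letters of PANX1 begin 43 bases before its start, and 42.6% of promoters hold them. The estrogen response element, GGTCA followed after any 3 bases by TGACC and held by 0.0399% of promoters, and its half-site GGTCA, held by 32.6%, were searched on both strands and were not in the windows of GJA1, PANX1, GJB2 or PCDH7. The letters TATAAA (10.7% of promoters) were not in these windows either, CCAAT (32.0%) was on the minus strand of PCDH7, and GGGCGG was in that of GJB2 at 3 places. These are matches of letters in a window and say nothing of binding. GJC1 was not analysed for this.

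PANX1 (probe set 7943218, chromosome 11, 94128841 to 94181968 in GRCh38.p14), the main ATP-releasing pannexin, was the member with the largest difference. Its log2 signal was 7.21, 5.05 and 5.95 in estradiol with astrocytes, against 7.86, 8.07 and 7.96 in estradiol alone. It was 7.56, 7.21 and 6.17 in vehicle with astrocytes, against 7.73, 7.80 and 7.72 in vehicle alone. All 6 arrays with astrocytes were below all 6 without, and the values with astrocytes were spread over more than 2 units while those without lay close together. The groups averaged 6.07 ± 1.09 in estradiol with astrocytes and 6.98 ± 0.72 in vehicle with astrocytes, against 7.97 ± 0.10 in estradiol alone and 7.75 ± 0.044 in vehicle alone (SD, n = 3 each).

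**Figure D1:**
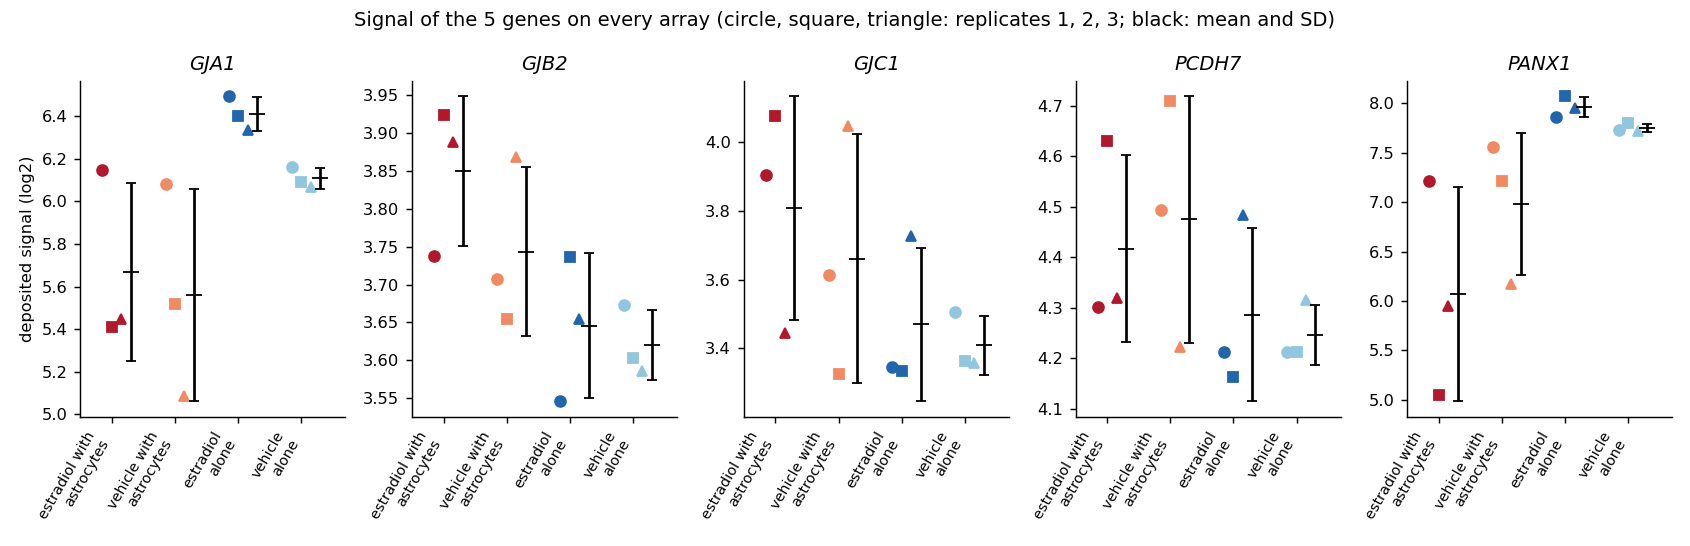
Deposited log2 signal of GJA1, GJB2, GJC1, PCDH7 and PANX1 on each array (circles, squares and triangles for replicates 1, 2 and 3), by group, with the group mean and SD in black; each panel has its own scale and does not start at 0. PANX1 lies at 7.56 or less on the arrays with astrocytes and at 7.72 or more on those without, while GJB2, GJC1 and PCDH7 move by less than 1 unit over all 12 arrays.

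Under estradiol, PANX1 fell by 1.89 with astrocytes (SE 0.47), which is 3.72-fold, with an adjusted p of 0.0371 in limma over all genes. It was the only 1 of the 5 members to pass, and 13.2% of all genes passed in this comparison (8.15% lower). At an unadjusted p under 0.05 it was 2 of 5 members, against 43.9%. Under vehicle the difference was −0.77 (SE 0.47, 95% interval −1.79 to 0.26, adjusted p = 0.274), and 0 of 5 members passed in limma, against 0.0557% of all genes. At an unadjusted p under 0.05 it was also 0 of 5, against 28.2%. The difference between the 2 astrocyte effects was −1.13 (SE 0.66), with an unadjusted p of 0.116 and an adjusted p of 1, so the effects were not shown to differ between treatments. Over both treatments PANX1 fell by 1.33 (SE 0.33, adjusted p = 0.0117), 2.52-fold, where 47.5% of all genes passed and 23% passed as lower. The arrays with and without astrocytes did not overlap for PANX1, as for 11.3% of genes in the same direction. An exact two-sided permutation test, exchanging arrays within each treatment, gave p = 0.005, the smallest it can give, which 30.3% of all genes reached, and an adjusted p of 0.0165 over all genes.

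The call under estradiol was lost under 11 of 22 alternatives, 7 of which left out 1 array. Its adjusted p in limma was 0.155, 0.0905 and 0.121 without replicates 1, 2 and 3 of estradiol alone, 0.0559 and 0.0619 without replicates 1 and 2 of vehicle alone, and 0.0642 and 0.0871 without replicates 2 and 3 of estradiol with astrocytes. Without replicate 2 of estradiol with astrocytes the difference was −1.38, and the array SD as covariate gave −1.04 (adjusted p = 0.167). Quantile normalization gave −1.55 (adjusted p = 0.0666), the fit of only the compared groups an adjusted p of 0.123, and leaving out the second arrays of both astrocyte groups one of 0.0559. Over both treatments every array could be left out with an adjusted p of at most 0.0313, whereas the SD covariate gave −0.58 (adjusted p = 0.253). The array SD comes from the same values and was mostly lower with astrocytes. Fits with it, here and below, therefore cannot tell co-culture from the range of signal. On the arrays with the lowest signal of PANX1 the range of all probe sets was also narrow, as the plot of signal against array SD shows, and over 12 arrays the correlation of the 2 was 0.832 (0.683 for deviations from the group means).

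**Figure D2:**
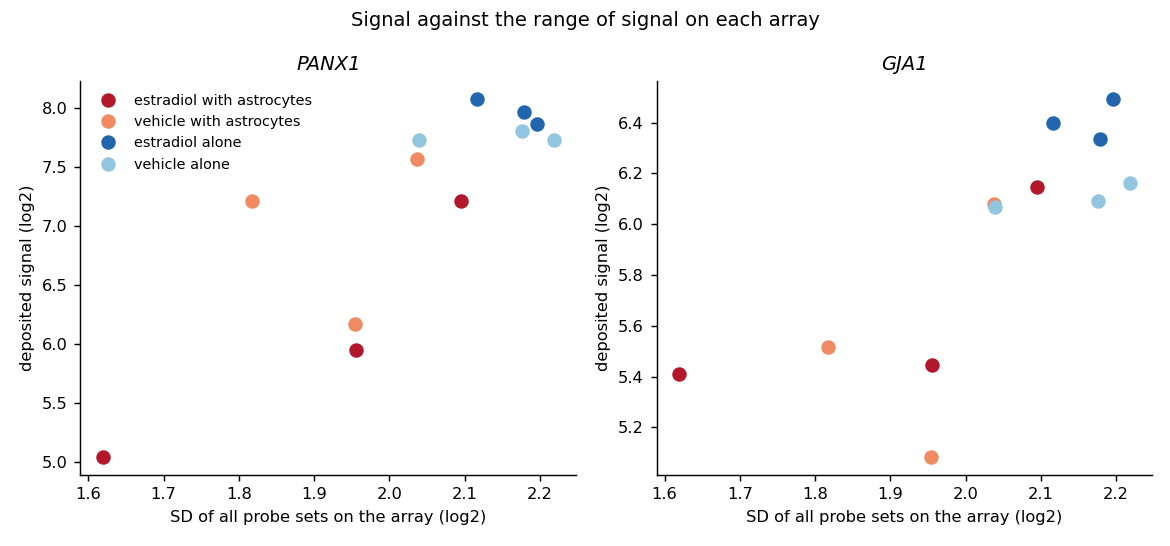
Deposited log2 signal of PANX1 (left) and GJA1 (right) against the SD of all probe sets on the same array, one point per array, coloured by group; axes do not start at 0. The array with the lowest SD, 1.62, has the lowest PANX1 signal, 5.05, and the 6 arrays without astrocytes have an SD of 2.04 or more.

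GJA1 (probe set 8121749, chromosome 6, 121435646 to 121449727), the most widely expressed connexin gene and the main connexin of astrocytes, was lower with astrocytes as well. Its log2 signal was 6.15, 5.41 and 5.45 in estradiol with astrocytes, against 6.49, 6.40 and 6.34 in estradiol alone. It was 6.08, 5.52 and 5.08 in vehicle with astrocytes, against 6.16, 6.09 and 6.07 in vehicle alone. The groups did not overlap under estradiol, and under vehicle replicate 1 with astrocytes lay within the range of the arrays without them. For GJA1 replicate 1 was the highest array in every group, and for PANX1 it was the highest only in the astrocyte groups.

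Over both treatments GJA1 fell by 0.64 (SE 0.19, adjusted p = 0.0205), 1.56-fold, so that 2 of 5 members passed against 47.5% of all genes, and the exact permutation test gave p = 0.01 (adjusted p = 0.0240). The difference was −0.74 under estradiol (SE 0.27, adjusted p = 0.0706) and −0.55 under vehicle (SE 0.27, adjusted p = 0.198), neither past the threshold, and their difference of −0.19 (SE 0.38) had an adjusted p of 1. Under estradiol GJA1 passed under 3 of 22 alternatives. These were array weights (−0.86, adjusted p = 6.7e-05), leaving out replicate 1 of estradiol with astrocytes (−0.98, adjusted p = 0.0140), and a block for the replicate number, given at the end. The call over both treatments was lost under quantile normalization (−0.31, adjusted p = 0.152), with the array SD as covariate (−0.33, adjusted p = 0.305), and without replicate 1 of estradiol alone (−0.62, adjusted p = 0.0517) or replicate 1 of vehicle alone (−0.63, adjusted p = 0.0506). Across the 12 arrays GJA1 and PANX1 correlated at 0.845, and their deviations from the group means at 0.875; GJA1 and the array SD correlated at 0.771 and 0.564.

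**Figure D3:**
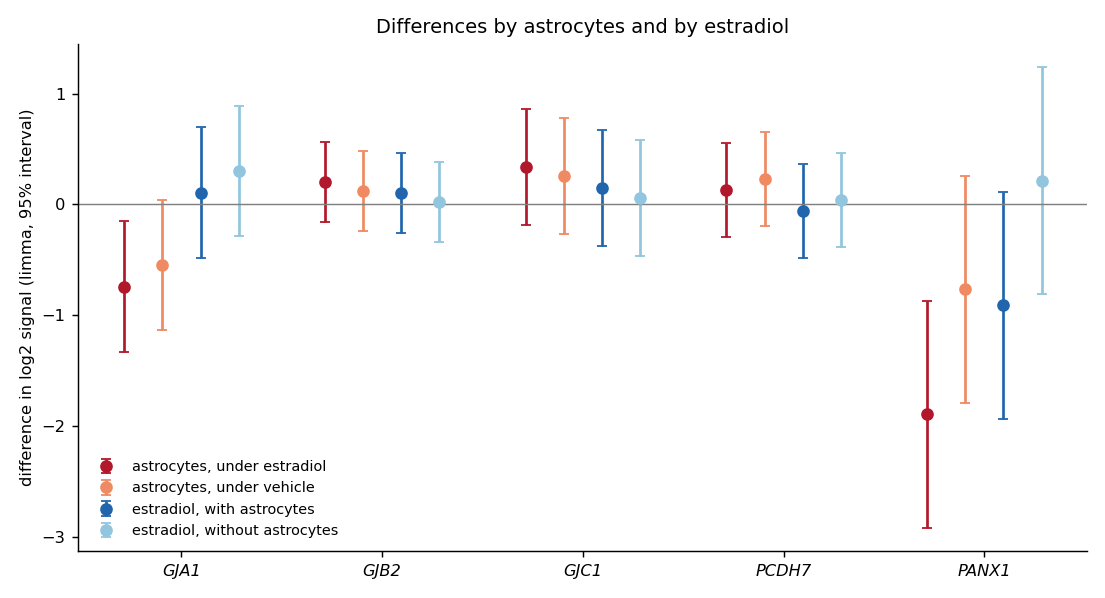
Differences in log2 signal of each gene for 4 comparisons, as the limma estimate with its 95% interval; positive is higher with astrocytes (red and orange) or with estradiol (blue and light blue). The interval for PANX1 with astrocytes under estradiol, −2.92 to −0.87, lies below 0, as does that of GJA1, −1.33 to −0.15, and those of GJB2, GJC1 and PCDH7 include 0 in all 4 comparisons.

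GJB2 (probe set 7970441, chromosome 13, 20187470 to 20192938) encodes an epithelial connexin known for its role in the inner ear. Its log2 signal was 3.74, 3.92 and 3.89 in estradiol with astrocytes and 3.71, 3.65 and 3.87 in vehicle with astrocytes. It was 3.55, 3.74 and 3.66 in estradiol alone and 3.67, 3.60 and 3.59 in vehicle alone. The 12 values span less than 0.4 units, and under estradiol the groups fail to overlap by less than 0.001. The difference was 0.20 under estradiol (95% interval −0.16 to 0.56, adjusted p = 0.323) and 0.12 under vehicle (−0.24 to 0.48, adjusted p = 0.595). Over both treatments it was 0.16 in limma (adjusted p = 0.243), and the exact permutation test gave p = 0.015 (adjusted p = 0.0318), where 54.7% of all genes passed. Counting GJB2, 3 of 5 members did not overlap under estradiol, against 50.9% of all genes, and under vehicle 1 of 5, PANX1, against 41.8%.

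GJC1 (probe set 8016094, chromosome 17, 44794104 to 44831364) encodes a connexin of the heart's conduction system and of vascular smooth muscle. Its log2 signal was 3.90, 4.08 and 3.44 in estradiol with astrocytes and 3.61, 3.32 and 4.05 in vehicle with astrocytes. It was 3.35, 3.33 and 3.73 in estradiol alone and 3.51, 3.36 and 3.36 in vehicle alone. All groups overlapped, and the highest arrays, at 4.08 and 4.05, were 1 of each astrocyte group. The difference was 0.34 under estradiol (adjusted p = 0.265) and 0.25 under vehicle (adjusted p = 0.455), and both treatments it was 0.30 (95% interval −0.07 to 0.67, adjusted p = 0.154).

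PCDH7 (probe set 8094520, chromosome 4, 30720369 to 31146800), the protocadherin gene, did not pass in any comparison. Its log2 signal was 4.30, 4.63 and 4.32 in estradiol with astrocytes and 4.49, 4.71 and 4.22 in vehicle with astrocytes. It was 4.21, 4.16 and 4.48 in estradiol alone and 4.21, 4.21 and 4.32 in vehicle alone. Replicate 2 was the highest array of both astrocyte groups, and all groups overlapped. The difference was 0.13 under estradiol (95% interval −0.29 to 0.56, adjusted p = 0.588) and 0.23 under vehicle (−0.20 to 0.65, adjusted p = 0.410). A rise in signal of more than 0.65 under vehicle lies outside the interval. PCDH7 and the array SD correlated at −0.707 over the 12 arrays and at −0.602 for the deviations from the group means. What this does to the interval was not tested. Over both treatments GJB2, GJC1 and PCDH7 had negative differences under quantile normalization (−0.17, −0.041 and −0.017), none past the threshold.

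For estradiol against vehicle, 0 of the 5 genes passed in limma, either in cells alone or in cells with astrocytes, as for 0 of all genes. In cells alone GJA1 was higher with estradiol on every array, with a difference of 0.30 (SE 0.27, 95% interval −0.29 to 0.89, unadjusted p = 0.286, adjusted p = 1.00), and PANX1 by 0.22 (SE 0.47, 95% interval −0.81 to 1.24, adjusted p = 1.00). These 2 of 5 members did not overlap between estradiol alone and vehicle alone, against 3.21% of all genes. No gene of the 17958 passed here after adjustment, and 1 (0.00557%) had an unadjusted p under 0.05, which was no member. The SE is shared with the astrocyte groups, which varied more. The SD of GJA1 was 0.080 in estradiol alone and 0.049 in vehicle alone. It was 0.42 in estradiol with astrocytes and 0.50 in vehicle with astrocytes. The main fit is thus conservative for cells alone, and a gene that did not pass there was not shown to be unchanged. With only the 6 arrays of the groups without astrocytes in the fit the adjusted p of GJA1 was also 1.00. With 3 arrays against 3 an exact permutation test cannot give a two-sided p below 0.1.

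With astrocytes present, the estradiol difference was −0.91 for PANX1 (SE 0.47, 95% interval −1.94 to 0.12, unadjusted p = 0.0768, adjusted p = 1.00) and 0.11 for GJA1 (−0.48 to 0.70). It was 0.11 for GJB2, 0.15 for GJC1 and −0.06 for PCDH7, the last with an interval of −0.48 to 0.37. All 5 genes overlapped between the groups, against 2.18% of genes that did not, and 0 of 5 members had an unadjusted p under 0.05, as 0.791% of all genes did. The interaction of estradiol and astrocytes passed for no member and no gene after adjustment, and at an unadjusted p under 0.05 for 0.173% of genes and no member.

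In the connexin family, 15 of 21 genes were measured, and over both treatments 9 rose and 1, GJA1, fell with astrocytes (background 24.5% and 23%). The list's median difference was 0.62, against 0.07 for all genes, and GJA1 was the 1 of 15 with a negative difference, but 4 were negative under quantile normalization and 6 with the array SD as covariate. GJA4, a connexin gene of vessel endothelium, rose by 1.40 (SE 0.32, adjusted p = 0.00880). GJB6, the second connexin gene of astrocytes and a member of the astrocyte marker list above, rose by 0.86 (SE 0.23, adjusted p = 0.0134), and GJC3, a connexin gene known from glia in mouse, rose by 0.62 (SE 0.17, adjusted p = 0.0148). GJA4 also passed under estradiol (1.58, adjusted p = 0.0453), where it was the only connexin gene to pass. With the array SD as covariate, 0 of 15 passed in limma and the median was 0.03, against 0.04 for all genes, and under quantile normalization 4 rose and 0 fell. Fewer of all genes passed in these fits too, here and for the lists below. Their shares are given with the PCDH7 effectors, so the lost calls are not particular to a list.

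Of 11 pannexins and other large-pore channels, 3 rose and 5 fell over both treatments, against 24.5% and 23% of all genes. PANX2 (0.38, adjusted p = 0.0879) and PANX3 (0.15, adjusted p = 0.472), the other pannexin genes, did not pass. CALHM2 and CALHM6, of a family of large-pore channels that includes ATP-permeable members, rose by 0.65 (adjusted p = 0.00471) and 0.72 (adjusted p = 0.0104). LRRC8D, a subunit of the volume-regulated anion channel, fell by 0.88 (SE 0.24, adjusted p = 0.0145), and LRRC8A, LRRC8B and LRRC8C were the other 3 channel genes that fell beside PANX1. Under estradiol PANX1 was the 1 of 11 to pass, and under vehicle 0 of 11 passed in limma, with 4 at an unadjusted p under 0.05 (28.2% of all genes). With the array SD as covariate 1 rose and 0 fell, and the list's median was −0.06, against 0.11 without the covariate.

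**Figure D4:**
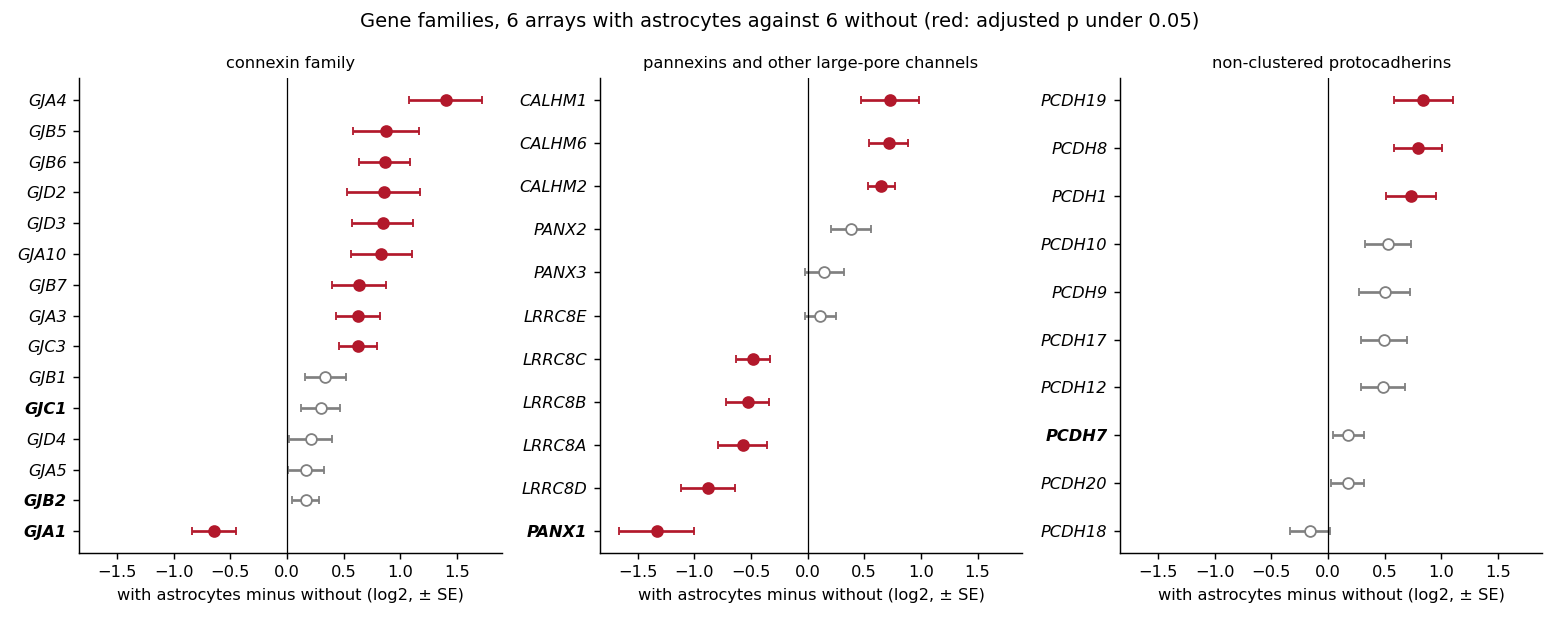
Difference in log2 signal between the 6 arrays with astrocytes and the 6 without, with its SE, for the measured connexins, large-pore channels and non-clustered protocadherins; filled red points have an adjusted p under 0.05 in limma and the 5 genes of interest are in bold. GJA1 and PANX1 are the lowest points of their panels, and GJB2, GJC1 and PCDH7 lie near 0 with open points.

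Among the non-clustered protocadherins 10 of 11 were measured, and 3 rose and none fell over both treatments, against 24.5% and 23% of all genes. Under estradiol and under vehicle 0 of 10 passed in limma, with 4 and 3 at an unadjusted p under 0.05, against 43.9% and 28.2% of all genes. PCDH1 rose by 0.73 (SE 0.22, adjusted p = 0.0225), PCDH8 by 0.79 (SE 0.21, adjusted p = 0.0143) and PCDH19 by 0.84 (SE 0.26, adjusted p = 0.0229). The list's median was 0.50, against 0.07 for all genes, and PCDH7 at 0.18 was among its 3 lowest values. Once the array SD was a covariate 0 passed in limma and the median was 0.0053.

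Of 17 measured genes for connexin partners and turnover, 1 rose and 7 fell over both treatments, against 24.5% and 23% of all genes, and the median was −0.50, against 0.07 for all genes. TJP1, which encodes ZO-1, the scaffold that binds the tail of the GJA1 protein, fell by 1.41 (SE 0.30, adjusted p = 0.00686), and its log2 signal fell by 1.46 under estradiol (adjusted p = 0.0459). USP8, a deubiquitinase gene, fell by 1.17 (SE 0.24, adjusted p = 0.00646) and PRKCA, for a protein kinase that phosphorylates the GJA1 protein, fell by 1.25 (SE 0.30, adjusted p = 0.00997). CDH2, the N-cadherin gene, rose by 0.58 (SE 0.16, adjusted p = 0.0147). With the array SD as covariate 2 rose and 0 fell, and the list's median turned to 0.10.

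Of 16 genes for ATP release and purinergic signalling, which lies downstream of PANX1 channels, 5 rose and 2 fell over both treatments, against 24.5% and 23% of all genes (median 0.45, against 0.07). P2RX7, an ATP-gated cation channel gene, rose by 1.05 (SE 0.25, adjusted p = 0.00960), and P2RY2, a G-protein-coupled receptor gene for ATP and UTP, by 0.75 (SE 0.18, adjusted p = 0.0110). P2RY12, an ADP receptor gene that is also in the microglia list above, rose by 0.83 (SE 0.24, adjusted p = 0.0193). ADORA2B, an adenosine receptor gene, fell by 1.17 (SE 0.29, adjusted p = 0.0117). Of the 16, 0 passed in limma once the array SD was a covariate.

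The cGAMP route, which gap junctions of GJA1 and PCDH7 are known to serve, had 12 of 16 genes measured, of which 3 rose and 4 fell over both treatments, against 24.5% and 23% of all genes (median 0.03, against 0.07). CGAS, the enzyme gene for cGAMP synthesis, fell by 1.58 (SE 0.26, adjusted p = 0.00384) over both treatments and by 1.61 under estradiol (adjusted p = 0.0352). ENPP1, which encodes the enzyme that breaks down cGAMP outside the cell, fell by 1.98 (SE 0.38, adjusted p = 0.00527), and NFKB1, an NF-kB subunit gene, fell by 2.07 (SE 0.42, adjusted p = 0.00585). TNF, a cytokine gene, rose by 1.34 (SE 0.33, adjusted p = 0.0111). In the fit with the array SD, 1 rose and 3 fell.

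Of 9 measured genes for effectors reported downstream of PCDH7, 1 rose and 2 fell over both treatments, against 24.5% and 23% of all genes (median −0.12, against 0.07). MYL9, a myosin regulatory light chain gene, rose by 1.02 (SE 0.16, adjusted p = 0.00330) and by 0.98 under estradiol (adjusted p = 0.0351). RAC1, a small GTPase gene, fell by 1.28 (SE 0.34, adjusted p = 0.0146). PPP2CA, the catalytic subunit gene of the phosphatase PP2A, fell by 1.15 (SE 0.41, adjusted p = 0.0376), and with the array SD as covariate its difference was 0.20 (adjusted p = 0.400). In that fit 5 of 9 rose and none fell, where 14.4% of all genes passed, and under quantile normalization 5 rose and 2 fell, where 32.3% of all genes passed.

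The genes whose signal was most like each member's over the 12 arrays were found by Pearson correlation, given as a description. The 12 arrays fall into 4 groups and differ in their range of signal, so each value is followed by that of the deviations from the group means. For PANX1 they were ACBD3 (0.982 and 0.952), WDFY1 (0.981 and 0.960) and NUP50 (0.981 and 0.976). For GJA1 they were ATP8A1 (0.962 and 0.923), MCTP2 (0.957 and 0.905) and PACC1 (0.955 and 0.931). The nearest genes were TENT5B (0.961 and 0.925), GADD45B (0.936 and 0.861) and THEM6 (0.919 and 0.791) for GJB2, and SDHAF4 (0.900 and 0.924), ID3 (0.898 and 0.905) and OPLAH (0.886 and 0.834) for GJC1. For PCDH7 they were LMO2 (0.944 and 0.940), FBXO39 (0.934 and 0.906) and OR4A47 (0.914 and 0.883). GJB2 ran against PANX1, at −0.870 over the 12 arrays and −0.692 for the deviations, and PCDH7 was close to unrelated to GJA1 in the deviations, at 0.01.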

How the data were processed

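The deposited values are log2 signals of 33297 probe sets on 12 arrays, and per the submitters' processing notes they come from RMA and Partek, without versions, roles or order. Column medians run from 4.35 to 4.77 and column SDs from 1.62 to 2.22, so the deposited values do not share the same distribution on every array. Arrays have no read depth, so their number limits the precision. The probe table names 1 gene for 19181 probe sets and several for 2055; 12061 are not in it. For 895 genes with several probe sets the one with the highest mean was taken, which left 17958 genes, without a filter on low values.

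All 12 arrays entered 1 linear model with a mean for each group, fitted by lmFit, contrasts.fit and eBayes of limma 3.58.1 (R 4.3.3). Tests were two-sided, and a Benjamini-Hochberg adjusted p over the 17958 genes under 0.05 was the threshold. The 6 contrasts are astrocytes against none under estradiol, under vehicle and as the mean of both, estradiol against vehicle alone and with astrocytes, and the interaction. The fit was tested on simulated data. "Rose", "fell" and "passed" refer to this test. Comparisons that share arrays are not independent.

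The members and gene lists were chosen with earlier results of these data known. All members are named. Of each list, the genes past the threshold in any contrast are named, or the 4 with the smallest p where over 6 passed. For each member, the 3 genes with the highest Pearson correlation are named besides. That search left out non-coding, keratin-associated and provisional names by their letters, and every name with a hyphen, also of protein-coding genes. Exceptions are the marker genes of the opening and, of the large-pore channels, LRRC8A, LRRC8B, LRRC8C, PANX2 and PANX3, named after their values were seen. Promoter sequences are from RefSeq (GRCh38.p14), found for 4 of 5 members. Arrays that share a replicate number deviated from their group means with correlations of 0.789, 0.756 and 0.214 across genes between the 2 astrocyte groups, a pairing seen in the values and not in the labels. These were the highest values of any pair of groups for each number. Replicate 1 arrays deviated together in every pair of groups, at 0.512 to 0.789, with 0.720 between estradiol alone and vehicle alone. Replicate 2 ran from −0.493 to 0.756 and replicate 3 from −0.353 to 0.214. Alternatives were a block for the replicate number, median centring, quantile normalization, averaged probe sets per gene, trend and robust options, array weights, the array SD as covariate, the compared groups only, genes above the median level, arrays left out and, added after seeing the data, the exact permutation test and the block within the astrocyte groups.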

Additional observations from a re-analysis of the deposited data

How the results depend on the processing

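The number of members past the threshold with astrocytes under estradiol, 1, was 0 under quantile normalization, with the array SD as covariate, with only the compared groups and with the second arrays of both astrocyte groups left out. It was 2 with the replicate block, which added GJA1 (adjusted p = 0.0281), and 0 to 2 when single arrays were left out. With array weights it was 3, which added GJA1 and GJB2 (adjusted p = 0.0461 for GJB2). Under vehicle it was 0, and 2 with array weights. Over both treatments it was 2, against 1 under quantile normalization, 0 with the array SD as covariate and 1 to 2 with single arrays left out. GJB2 gained a call over both treatments under 2 of 21 alternatives (lowest adjusted p = 0.0302). The exact permutation test was among them, and it also passed GJA1 and PANX1. The share of all genes that passed changed with the setting too, at 54.7% in that test against 47.5% in the main fit. A count of members alone is therefore not a result about them. The replicate block changed no member's call between estradiol and vehicle in the astrocyte groups, the groups that pair most closely in the values. These causes were not tested; leaving arrays out also leaves fewer samples.

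Among the members, signs turned for differences that did not pass, and among the named list genes for PPP2CA. Under quantile normalization GJB2 was −0.15 under estradiol, −0.18 under vehicle and −0.17 over both, GJC1 −0.014, −0.067 and −0.041, and PCDH7 −0.077 under estradiol and −0.017 over both. With array weights GJC1 was −0.13 and PCDH7 −0.079 under estradiol, GJC1 −0.35 for estradiol against vehicle with astrocytes and −0.60 for the interaction. The array SD as covariate gave PCDH7 −0.073 under estradiol, and PPP2CA, which had passed, 0.20 over both. Without the second astrocyte arrays GJC1 was −0.16 for estradiol against vehicle with astrocytes, and the interaction was −0.22 for GJC1 and −0.00091 for GJB2. With single arrays left out, estradiol alone against vehicle alone ran from −0.020 to 0.075 for GJB2, −0.068 to 0.13 for GJC1 and −0.058 to 0.10 for PCDH7. Estradiol against vehicle with astrocytes ran from −0.13 to 0.37 for GJA1, −0.022 to 0.34 for GJC1 and −0.18 to 0.059 for PCDH7. The interaction ran from −0.43 to 0.066 for GJA1, −0.083 to 0.28 for GJC1 and −0.22 to 0.019 for PCDH7. The fit with only the compared groups has no form for the mean and the interaction, and GJB2, GJC1 and PCDH7 fall out among genes above the median level. GJB2 and GJC1 lie below the median signal on every array and PCDH7 on 10 of 12, and what this does to their differences was not tested.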
